A study of Homo sapiens with 12 samples.

Results

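The genes described here are the transcriptional coactivators YAP1 and TAZ (gene symbol WWTR1) and 8 genes known as their targets or partners: CYR61, CTGF, ANKRD1, NT5E, CRIM1, AMOTL2, LATS2 and AJUBA. They were picked by symbol and are 10 of the 57500 genes in the deposited count table. They were chosen with the results of both comparisons below already known, so their values are given as a description, without p-values of their own. The study sequenced RNA of 3 established human lines in 12 libraries, as 4 groups with 3 biological replicates each. SW480 comes from a primary colorectal tumour and SW620 from a metastatic site of the same patient, and both grew untreated in DMEM. PEO4, from an ovarian cancer, grew in RPMI 1640, either in control medium or with recombinant human TGF-β at 10 ng/mL for 6 days. All media held serum and penicillin/streptomycin. Each group is a single line, so the first comparison is between a pair of lines and not between stages of disease in several patients, and the media also separate PEO4 from the SW lines.

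YAP and TAZ carry the output of the Hippo pathway. The kinases MST1 and MST2 (genes STK4 and STK3), with the scaffold SAV1, activate LATS1 and LATS2 and their MOB1 partners, and LATS kinases phosphorylate YAP and TAZ, which are then held in the cytoplasm or degraded. Unphosphorylated YAP and TAZ enter the nucleus and bind DNA through the TEAD factors, and several of the genes they switch on, among them LATS2 and AMOTL2, encode inhibitors of YAP and TAZ. In epithelial cells the pathway is known for reading cell density and tension, and in the intestine for its part in regeneration. Because phosphorylation and location set the activity of both proteins, RNA levels of YAP1 and WWTR1 do not measure it.

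TEAD factors bind the hexamer GGAATG, read as CATTCC on the other strand, so the 250 bases before each RefSeq start of transcription (GRCh38.p14) were searched for it on either strand. The RefSeq table used here held entries for 8 of the 10 genes, with CYR61 and CRIM1 not matched. The windows of CTGF and ANKRD1 carried 3 and 2 copies, and are shown because these genes are the textbook readouts of YAP and TAZ and had the smallest and the largest called difference between the SW lines. Of the 35116 windows in the table, 11.9% held at least 1 copy, 0.940% at least 2 and 0.0826% at least 3. The printed CTGF stretch is chr6:131951374-131951622 on the minus strand, and its copies begin 169, 104 and 95 bases before the start. Capitals mark the hexamer in every sequence, all read 5′ to 3′.
CTGF: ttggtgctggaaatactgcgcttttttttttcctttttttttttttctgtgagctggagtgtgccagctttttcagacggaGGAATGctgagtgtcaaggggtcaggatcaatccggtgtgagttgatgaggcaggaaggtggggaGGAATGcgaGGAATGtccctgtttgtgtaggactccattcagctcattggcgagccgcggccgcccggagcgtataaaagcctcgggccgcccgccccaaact

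The first copy at ANKRD1 begins 220 bases before the RefSeq start, in chr10:90921277-90921337 on the minus strand, and the second begins 128 bases before it, in chr10:90921198-90921227. GENCODE 29 places the first exon of ANKRD1 further upstream, so the second copy lies inside its annotated untranslated sequence, and only 30 bases of that part are shown.
ANKRD1 first copy: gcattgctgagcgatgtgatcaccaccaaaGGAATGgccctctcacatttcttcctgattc
ANKRD1 second copy: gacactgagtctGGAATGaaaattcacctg

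YAP1, the second RefSeq start of AMOTL2 and the second start of AJUBA had 1 copy each, shown with 12 bases on either side because AMOTL2 was lower in SW620 and AJUBA and YAP1 were not. They lie at chr11:102110273-102110302 on the plus strand for YAP1, and at chr3:134374499-134374528 and chr14:22976884-22976913 on the minus strand for AMOTL2 and AJUBA. The AMOTL2 and AJUBA stretches lie wholly inside exons that GENCODE 29 gives these genes. The windows of WWTR1, NT5E and LATS2 did not hold these letters. The AP-1 heptamer TGACTCA, which shares no hexamer with the TEAD motif and was also searched on both strands, occurred in 4.20% of all windows and in none of the 11 windows of these genes. A match is a run of letters and not a measured binding site.
YAP1: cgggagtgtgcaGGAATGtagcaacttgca
AMOTL2: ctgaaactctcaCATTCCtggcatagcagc
AJUBA: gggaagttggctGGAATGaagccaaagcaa

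Library totals ran from 14.53 to 22.03 in units of 1e6 counts, the smallest being replicate 2 of each SW line. Levels are counts per 1e6 counts (CPM), with library totals scaled by TMM factors (edgeR's correction for differing RNA make-up) over all 12 libraries. For the marker checks alone CPM were taken over the unscaled library totals. The summed level of 6 intestinal markers so taken was 38.7 to 68.6 CPM in SW480, 346 to 384 in SW620 and at most 3.13 in PEO4. That of 6 Müllerian and ovarian markers was 1051 to 1487 CPM in PEO4 against 67.1 to 170.2 in the SW lines. Some single markers did not follow these sums. SOX17 had group means of 1.46 CPM in PEO4 control, 2.78 in SW480 and 3.41 in SW620. FOLR1 had 11.6, 3.65 and 17.6 CPM in the same order. CDX2 was at 20.3 CPM in SW480 and 20.4 in SW620, where VIL1 at 231 and LGR5 at 104.5 CPM were highest. A list of 7 immune, endothelial and fibroblast markers summed to between 2.35 and 15.4 CPM in every library, highest in the SW620 group. SW620 replicate 3 held counts for 67 of 67 genes that mark PEO4, at an estimated 1.30% of the PEO4 level, while the other 5 SW libraries gave 0.269% to 0.534%. At that share, carried reads would make up 67.5% of its 5 ANKRD1 counts, 58.4% of its CRIM1, 33.3% of its CTGF, 19.4% of its NT5E, 16.9% of its CYR61 and 13.0% of its AMOTL2 counts, and under 5% for the other 4 genes, with YAP1 lowest at 0.934%. Carried reads and true low expression cannot be told apart in that library. The SW fold changes without it are given below for the genes concerned.

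YAP1 and TAZ parted in the colorectal lines. YAP1 RNA stood at a similar level in all 4 groups, while WWTR1 was 7.25-fold lower in SW620 than in SW480. Of the 10 genes, 8 were lower in SW620 with an adjusted p under 0.05 in edgeR's quasi-likelihood test over all genes, and none was higher. Over all 20941 genes tested, 30.5% passed that threshold, 17.0% lower and 13.5% higher. Those 8 genes also had groups that did not overlap between the lines, which held for 43.9% of all genes. The median log2 fold change of SW620 over SW480 was -2.13 over the 10 genes and 0.03 over all genes. Nothing is read from these counts, since the genes were chosen with this contrast known.

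In PEO4, 6 days of TGF-β left none of the 10 genes past the threshold, where 2.26% of 19064 genes tested passed, 1.27% higher and 0.991% lower. By an unadjusted p under 0.05 in edgeR's test, 1 of the 10 and 3175 of all genes passed. DESeq2 called 0 of the 10 and 922 of all genes. CRIM1 was the 1 gene of the 10 whose groups did not overlap, against 20.0% of all genes. The median log2 fold change was -0.03 over the 10 genes and -0.02 over all genes. In the authors' deposited tables, 8 of the 10 had an adjusted p under 0.05 between the SW lines and 0 in PEO4. The share over all genes was not taken from those tables, and nothing is read from their counts of calls either. As a check of the treatment, of 7 genes known to be induced by TGF-β, LTBP2 (log2 fold change 2.74 ± 0.23, SE), COL7A1 (3.46 ± 0.21), TGFBI (2.33 ± 0.25) and PMEPA1 (2.32 ± 0.38) passed the threshold, while SKIL at 1.08 ± 0.24 and SMAD7 at 0.32 ± 0.18 were among those that did not. PMEPA1 lost its call without control replicate 2, TGF-β replicate 1 or TGF-β replicate 2, with log2 fold changes of 2.03 to 3.04 over all libraries left out in turn.

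**Figure D1:**
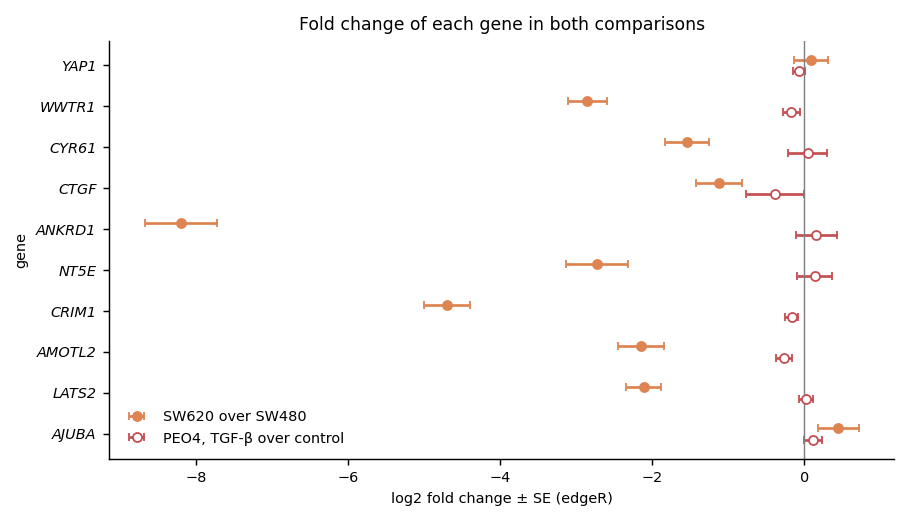
Log2 fold change with its standard error from edgeR for each of the 10 genes, SW620 over SW480 (filled) and PEO4 with TGF-β over control (open). The filled points reach from -8.20 for ANKRD1 to 0.44 for AJUBA, and the open points all lie between -0.39 and 0.16.

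YAP1 (chr11:102110461-102233423, GENCODE 29 on GRCh38), the coactivator at the end of the kinase cascade, stood at 269, 200 and 274 CPM in SW480 replicates 1 to 3 and at 275, 195 and 310 CPM in SW620. In PEO4 it was at 265, 234 and 235 CPM in control medium and at 230, 251 and 234 CPM with TGF-β. The ranges of all groups overlap, and the highest group mean is 1.09 times the lowest. The log2 fold change was 0.09 ± 0.22 between the SW lines and -0.07 ± 0.08 in PEO4 (SE).

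WWTR1 (chr3:149517235-149736714), which encodes the paralog TAZ, was at 98.8, 60.3 and 90.9 CPM in SW480 and at 11.1, 8.58 and 14.3 CPM in SW620. Every SW620 library lies below every SW480 library. The log2 fold change was -2.86 ± 0.26 (SE), and leaving out each library in turn gave -3.07 to -2.65. In PEO4 the control libraries had 66.2, 65.1 and 52.0 CPM and the treated ones 53.5, 61.4 and 51.3 CPM. Those groups overlap, and the log2 fold change was -0.18 ± 0.11 (SE). Set against YAP1 per kilobase of merged exon, the WWTR1 level was 24.9% ± 2.47 of the YAP1 level in SW480, 3.25% ± 0.227 in SW620, 18.7% ± 2.17 in PEO4 control and 17.4% ± 0.982 with TGF-β (SD, n = 3). The ratio was between 3.01% and 3.46% in the SW620 libraries and from 16.4% to 27.5% in all 9 others.

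**Figure D2:**
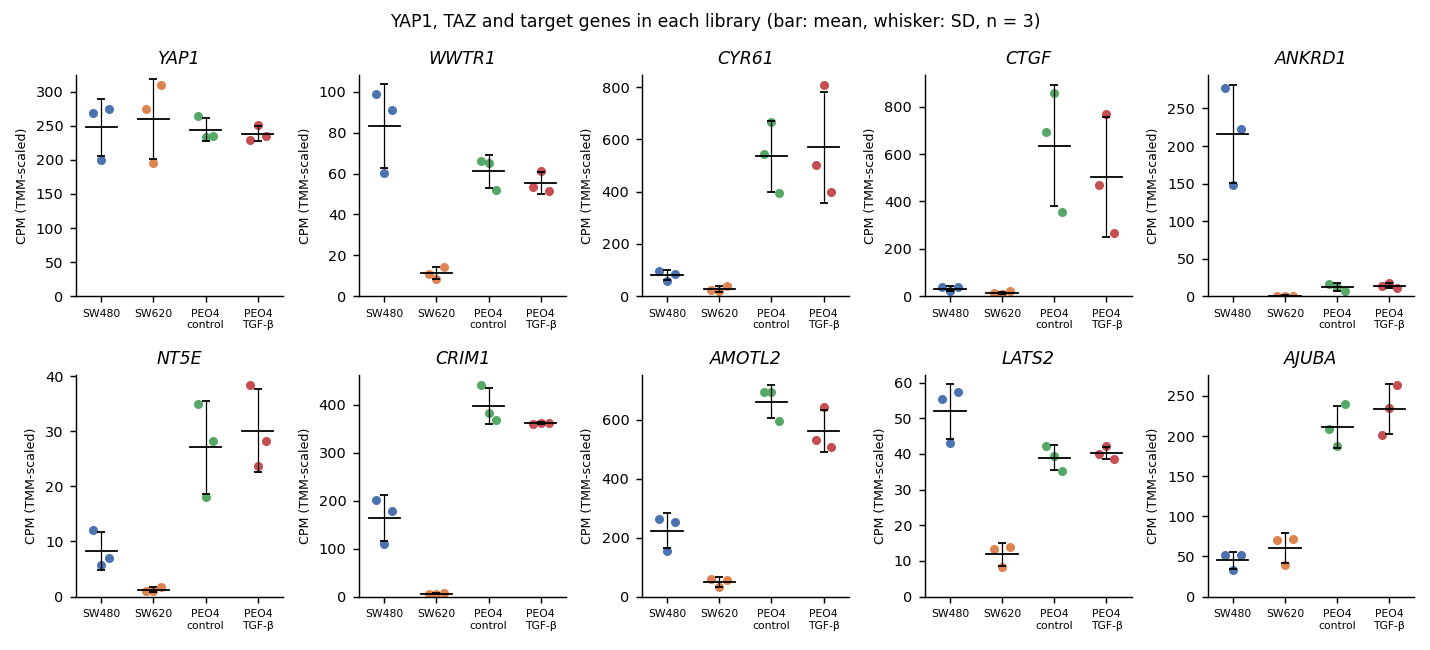
Level of each of the 10 genes in CPM (linear axes starting at 0) in every library, with replicates 1 to 3 from left to right in each of the 4 groups, the mean as a bar and the SD as a whisker (n = 3). YAP1 is level across groups, ANKRD1 is high in SW480 alone, and CTGF, CYR61, CRIM1 and AMOTL2 are highest in PEO4.

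ANKRD1 (chr10:90912096-90921276), a nuclear and sarcomeric ankyrin repeat protein induced by YAP and TAZ in many cell types, showed the widest spread among the 10 genes. It was at 278, 148 and 223 CPM in SW480 and at 0.975, 0.972 and 0.232 CPM in SW620, where the 3 libraries held 20, 18 and 5 counts. The fitted log2 fold change was -8.20 ± 0.47 (SE), with extremes of -8.46 and -7.77 when SW620 replicate 1 or SW620 replicate 3 was left out. The SW480 mean was 298 times the SW620 mean. Genes chosen as marks of SW480 were seen in the SW620 libraries at an estimated 0.777% to 1.45% of their SW480 level, and the part of carried reads in the SW620 counts of ANKRD1 was not tested. PEO4 lay between the SW lines, at 16.8, 12.9 and 7.30 CPM in control medium and at 13.8, 17.1 and 11.2 CPM with TGF-β. The PEO4 groups overlap, and the log2 fold change was 0.16 ± 0.27 (SE).

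CYR61 (chr1:85580761-85583962; CCN1) and CTGF (chr6:131948176-131951373; CCN2) encode secreted matricellular proteins and are the usual reporters of YAP and TAZ activity. CYR61 was at 97.2, 59.0 and 84.3 CPM in SW480 and at 23.3, 19.2 and 38.8 CPM in SW620. CTGF was at 38.4, 20.6 and 37.0 CPM in SW480 and at 12.4, 10.7 and 20.4 CPM in SW620. The lines do not overlap for either gene, although the highest SW620 value of CTGF comes within 1 CPM of the lowest SW480 value. The log2 fold changes were -1.54 ± 0.29 for CYR61 and -1.12 ± 0.30 for CTGF (SE). Without SW620 replicate 3, the SW library with the highest estimated share of PEO4 reads, they were -1.90 and -1.46. CTGF lost its call when SW480 replicate 1, SW480 replicate 3 or SW620 replicate 1 was left out, with log2 fold changes of -0.94, -1.01 and -0.98.

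Both reporters were far higher in PEO4 than in the colorectal lines. CTGF was at 694, 858 and 355 CPM in PEO4 control and at 471, 771 and 267 CPM with TGF-β. CYR61 was at 544, 667 and 395 CPM in control medium and at 502, 808 and 397 CPM with the cytokine. The control mean of CTGF was 19.9 times the SW480 mean and 43.9 times the SW620 mean, and that of CYR61 6.68 and 19.8 times. These are levels of different lines in different media, given without a test.

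Within PEO4 both reporters varied widely among replicates. Replicate 2 was highest and replicate 3 lowest for CTGF and for CYR61 in control and in treated cells alike. The highest library was 2.42 times the lowest in control and 2.89 times with TGF-β for CTGF, and 1.69 and 2.04 times for CYR61. Comparing libraries of the same number, the log2 ratio of treated over control for CTGF was -0.56, -0.15 and -0.41 in replicates 1 to 3, lower in 3 of 3, and for CYR61 it was -0.12, 0.28 and 0.01. For ANKRD1 it was -0.28, 0.41 and 0.62, and ANKRD1 was also lowest in replicate 3 of both groups, but highest in replicate 1 in control and in replicate 2 with TGF-β. The labels do not say that a number marks a shared culture or day. Over the 6 libraries the fitted log2 fold changes were -0.39 ± 0.38 for CTGF and 0.04 ± 0.25 for CYR61 (SE), and 1 library moved each a good deal: CTGF was at -0.80 without TGF-β replicate 2 and at -0.07 without control replicate 2, and CYR61 at -0.26 and 0.26 in the same order. Without a block on the replicate number CTGF was not called, and with the block it was, at -0.41 ± 0.08 (SE). The block also raised the calls over all genes in PEO4 from 431 to 2102. Nothing is read from the CTGF call, since the gene was chosen with this contrast known.

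**Figure D3:**
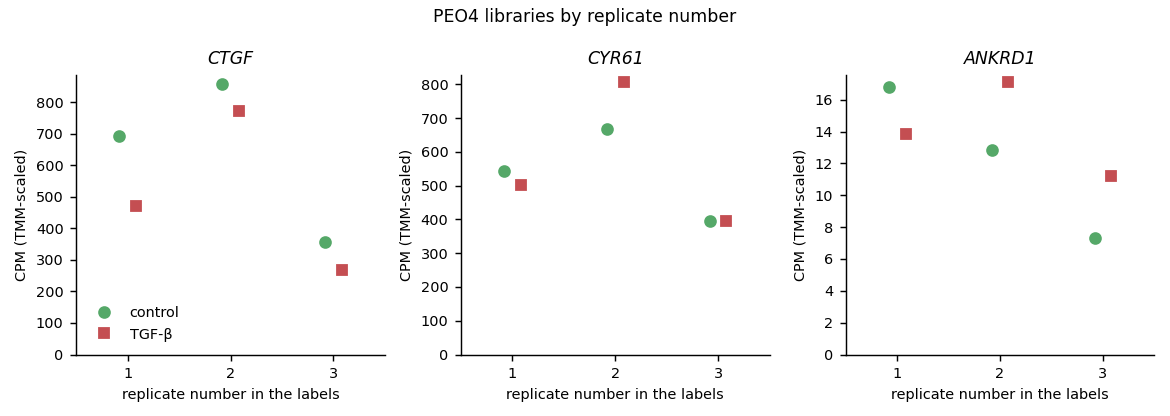
CTGF, CYR61 and ANKRD1 in CPM (linear axes starting at 0) against the replicate number of the 6 PEO4 libraries, control as circles and TGF-β as squares. Replicate 2 is highest and replicate 3 lowest for CTGF and CYR61 in both groups, from 858 to 355 CPM for CTGF in control, and ANKRD1 is lowest in replicate 3 of both groups but highest in replicate 1 in control.

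The proportion of CTGF to CYR61 also differed by line. Per kilobase of merged exon, the CTGF level was 41.4% ± 4.79 of the CYR61 level in SW480 and 56.4% ± 1.77 in SW620. In PEO4 it was 121% ± 23.1 in control and 89.7% ± 16.6 with TGF-β (SD, n = 3). The control libraries spanned 94.3% to 135% and the treated ones 70.5% to 100%, so the PEO4 groups overlap, while each SW line lies below both. Of the merged exon bases of CTGF 8.34% overlap an antisense gene, as do 9.97% of those of YAP1 and 9.45% of those of WWTR1, and strand use in counting is not given in the sources used here.

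NT5E (chr6:85449584-85495791) encodes CD73, the cell surface enzyme that makes adenosine. Per kilobase it was the lowest of the 10 genes in SW480, SW620 and PEO4 control. It was at 12.1, 5.68 and 6.95 CPM in SW480 and at 0.975, 0.918 and 1.77 CPM in SW620. The log2 fold change was -2.73 ± 0.41 (SE), and -3.11 without SW620 replicate 3. PEO4 had 34.9, 18.1 and 28.2 CPM in control medium and 38.4, 23.7 and 28.3 CPM with TGF-β. Replicate 2 is the lowest of both PEO4 groups here, the reverse of CTGF and CYR61, and the log2 fold change was 0.13 ± 0.23 (SE).

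CRIM1 (chr2:36355926-36551135), a transmembrane protein that binds bone morphogenetic proteins, had the second largest drop between the SW lines. It was at 202, 110.4 and 178 CPM in SW480 and at 4.63, 6.16 and 7.81 CPM in SW620, a log2 fold change of -4.70 ± 0.30 (SE), or -4.91 without SW620 replicate 3. In PEO4 control it was at 441, 383 and 369 CPM and with TGF-β at 360, 362 and 363 CPM. The treated libraries lie close together, spanning a factor of 1.01, and all lie just below the lowest control library. The log2 fold change was -0.17 ± 0.08 (SE) and stayed between -0.21 and -0.09 with each library left out. Across the 4 groups CRIM1 ranged most after ANKRD1, with 64.2 times as much in PEO4 control as in SW620.

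AMOTL2 (chr3:134355874-134375479), an angiomotin family protein that binds YAP and holds it at junctions, and LATS2 (chr13:20973032-21061547), the kinase that phosphorylates YAP and TAZ, are both inhibitors and targets. AMOTL2 was at 262, 154 and 254 CPM in SW480 and at 60.8, 31.0 and 56.6 CPM in SW620. LATS2 was at 55.4, 43.2 and 57.3 CPM in SW480 and at 13.4, 8.21 and 13.9 CPM in SW620. Both were lower by close to the same amount, with log2 fold changes of -2.15 ± 0.30 and -2.11 ± 0.23 (SE), and neither overlapped between lines. Without SW620 replicate 3 the values were -2.27 and -2.25. In PEO4 the order of the inhibitors split. AMOTL2 was at 694, 694 and 596 CPM in control and at 533, 644 and 508 CPM with TGF-β, 2.96 times SW480 in control. LATS2 was at 42.2, 39.3 and 35.3 CPM in control and at 39.9, 42.1 and 38.7 CPM with TGF-β, below every SW480 library. The log2 fold changes with TGF-β were -0.27 ± 0.11 for AMOTL2, lower in 3 of 3 libraries of the same number, and 0.02 ± 0.09 for LATS2.

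AJUBA (chr14:22971174-22982642), a LIM domain protein that binds LATS kinases and dampens them at junctions, was the 1 target or partner of the 10 that was not lower in SW620. It was at 51.2, 32.8 and 51.7 CPM in SW480 and at 71.0, 39.0 and 72.1 CPM in SW620. The lines overlap through SW620 replicate 2, and the log2 fold change was 0.44 ± 0.27 (SE). Without SW620 replicate 2 it was 0.73, and AJUBA then passed the threshold. PEO4 had 208, 188 and 239 CPM in control and 202, 235 and 264 CPM with TGF-β, with a log2 fold change of 0.11 ± 0.12 (SE). PEO4 control was 4.68 times SW480.

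Replicate 2 of both SW lines was low for these genes as a set. It was the lowest library for 10 of the 10 genes in SW480 and for 8 of 10 in SW620, while 41.5% and 41.7% of all genes tested were lowest there. It had the smallest totals, 14.7 and 14.5 in units of 1e6 counts, and the highest TMM factors of its line, 1.16 and 1.28. SW620 replicate 3 was the highest SW620 library for 8 of the 10 genes, against 45.3% of all genes. The part of depth, TMM scaling or the cultures in this was not tested. Without replicate 2 of SW480 the median log2 fold change of the 10 genes was -2.31, and without replicate 2 of SW620 it was -1.86.

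Ordered by level per kilobase, the set looked different in each line. In SW480 ANKRD1 led at 109 ± 32.8 CPM per kb, ahead of YAP1 at 39.4 ± 6.57, AMOTL2 at 37.3 ± 10.0 and CYR61 at 32.7 ± 7.90, and the last 3 of these do not differ beyond their spread. In SW620 YAP1 led at 41.3 ± 9.35, followed by CYR61 at 11.1 ± 4.22 and AJUBA at 10.2 ± 3.15, which overlap, and ANKRD1 and NT5E came last at 0.367 ± 0.216 and 0.269 ± 0.105. In SW620 YAP1 thus stood above every other gene of the set. In PEO4 control CTGF at 272 ± 109.6 and CYR61 at 218 ± 55.5 led and overlap, ahead of AMOTL2 at 111 ± 9.41, CRIM1 at 55.9 ± 5.35 and YAP1 at 38.8 ± 2.75 CPM per kb (SD, n = 3). With TGF-β CYR61 at 232 ± 87.0 and CTGF at 215 ± 109 changed places within that spread. NT5E, ANKRD1, LATS2 and WWTR1 made up the lowest 4 in both PEO4 groups, between 5.97 and 7.26 CPM per kb.

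The order of the groups also differed between the target genes. CYR61, CTGF, NT5E, CRIM1 and AMOTL2 went from PEO4 over SW480 to SW620, with each SW line apart from its neighbour. ANKRD1, LATS2 and WWTR1 were instead highest in SW480 and lowest in SW620, with PEO4 between them, although the SW480 and PEO4 control libraries of WWTR1 overlap. AJUBA was highest in PEO4 and lowest in SW480, with the SW lines overlapping, and YAP1 had no order beyond the spread. In PEO4 the treated and control libraries overlapped for 9 of the 10 genes, and CRIM1 was the exception. SW620 was thus the lowest group for 8 of the 10 genes, the same 8 that were called lower in SW620. The share of all genes lowest in SW620 was not taken. Nothing is read from this count, since the genes were chosen with the SW contrast known.

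The genes most like the 3 textbook reporters were found by Pearson correlation of log2 CPM over the 12 libraries, among 11678 genes. These libraries fall into the SW lines and PEO4, so the correlation mostly reflects levels of the lines, and it is given as a description. CTGF was followed by TPD52L1 (r = 0.992), C2orf50 (0.991) and PARP9 (0.991). CYR61 was followed by GLIS2 (0.995), SERTAD2 (0.993) and ZNF217 (0.992), all higher in PEO4 than in the SW lines. ANKRD1 was followed by RAPH1, EPAS1 and KCNJ5 (0.988, 0.988 and 0.985). EPAS1, the hypoxia-inducible factor HIF-2α, was at 324 CPM in SW480, 2.14 in SW620 and 21.8 in PEO4 control, and KCNJ5, a potassium channel, at 207, 2.79 and 22.9 CPM.

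The gene lists from here on were also chosen with earlier results of these data known. Adjusted p-values of their genes are therefore a description of the fit and not independent tests. Upstream of YAP and TAZ, 26 of 27 Hippo kinases and regulators could be tested between the SW lines. Of these, 10 passed the threshold, 8 lower and 2 higher in SW620. Leaving aside AMOTL2, LATS2 and AJUBA, 8 of 23 passed (34.8%, beside 30.5% of all genes), and their median log2 fold change was -0.25. The largest were AMOT, the founding angiomotin, from 64.3 to 8.32 CPM (log2 fold change -2.93 ± 0.20, adjusted p = 1.41e-05 in edgeR), and WTIP, a LIM protein related to AJUBA, from 33.6 to 4.71 CPM (-2.81 ± 0.22). WWC1 (KIBRA), an upstream activator of LATS, fell by 1.68 ± 0.18 on the log2 scale and its partner FRMD6 by 1.09 ± 0.18. Apart from LATS2, the genes of the core kinase module gave no call: STK3 had -0.18 ± 0.17, STK4 -0.23 ± 0.17, SAV1 -0.47 ± 0.21, LATS1 0.40 ± 0.15, MOB1A -0.79 ± 0.27 and MOB1B -0.02 ± 0.18 (SE). NF2, the tumour suppressor merlin that recruits LATS to the membrane, had -0.54 ± 0.23. MOB1A, at an adjusted p of 0.0509 in edgeR, LATS1 and NF2 each passed under some of the alternative settings, among them scaling by total counts.

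Of 9 tested genes of the YAP, TAZ, TEAD and VGLL families 4 passed between the SW lines, 3 lower and 1 higher, WWTR1 among them (44.4%, and 3 of 7 or 42.9% without YAP1 and WWTR1, beside 30.5% of all genes). TEAD2 fell from 49.3 to 7.25 CPM (log2 fold change -2.74 ± 0.19, adjusted p = 1.45e-05 in edgeR) and TEAD3 from 27.8 to 13.8 CPM (-0.99 ± 0.18). TEAD1, the most abundant TEAD at 364 ± 46.3 CPM in SW480 and 302 ± 40.5 in SW620, had -0.25 ± 0.19, and TEAD4 had -0.17 ± 0.19, without a call. VGLL4, which competes with YAP and TAZ for TEAD, rose from 38.2 to 109.8 CPM (1.55 ± 0.17, adjusted p = 0.000177 in edgeR). VGLL4 shares 23.7% of its exon bases with other genes on the opposite strand, so its counts are uncertain.

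Several of these regulators separated PEO4 from the colorectal lines altogether. NF2 was at 130 ± 29.1 CPM in SW480 and 88.3 ± 21.5 in SW620 but at 1.28 ± 0.921 in PEO4 control and 1.21 ± 0.382 with TGF-β (SD, n = 3), from 11 to 45 counts a library. STK3 was at 17.1 and 14.9 CPM in the SW lines and at 191 ± 60.2 in PEO4 control, and AMOTL1 at 5.29 and 1.35 CPM against 373 ± 63.7. The 3 SW620 values of AMOTL1 were 0.39, 0.324 and 3.35 CPM. The last is replicate 3, the SW library with the highest estimated share of PEO4 reads. VGLL1, a TEAD-binding cofactor that uses the same surface as YAP, had 0 to 10 counts in the SW libraries, with the 10 in SW620 replicate 3, and 54.8 ± 10.0 CPM in PEO4 control. TEAD2 went the other way, at 0.622 ± 0.189 CPM in PEO4 control. Genes chosen as marks of both SW lines, 4 to 11 a library, were seen in PEO4 at an estimated 0.0468% to 0.879% of their SW level. The part of carried reads in the PEO4 counts of NF2 and TEAD2 was not tested. TEAD1 was similar in all groups, between 302 and 364 CPM.

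**Figure D4:**
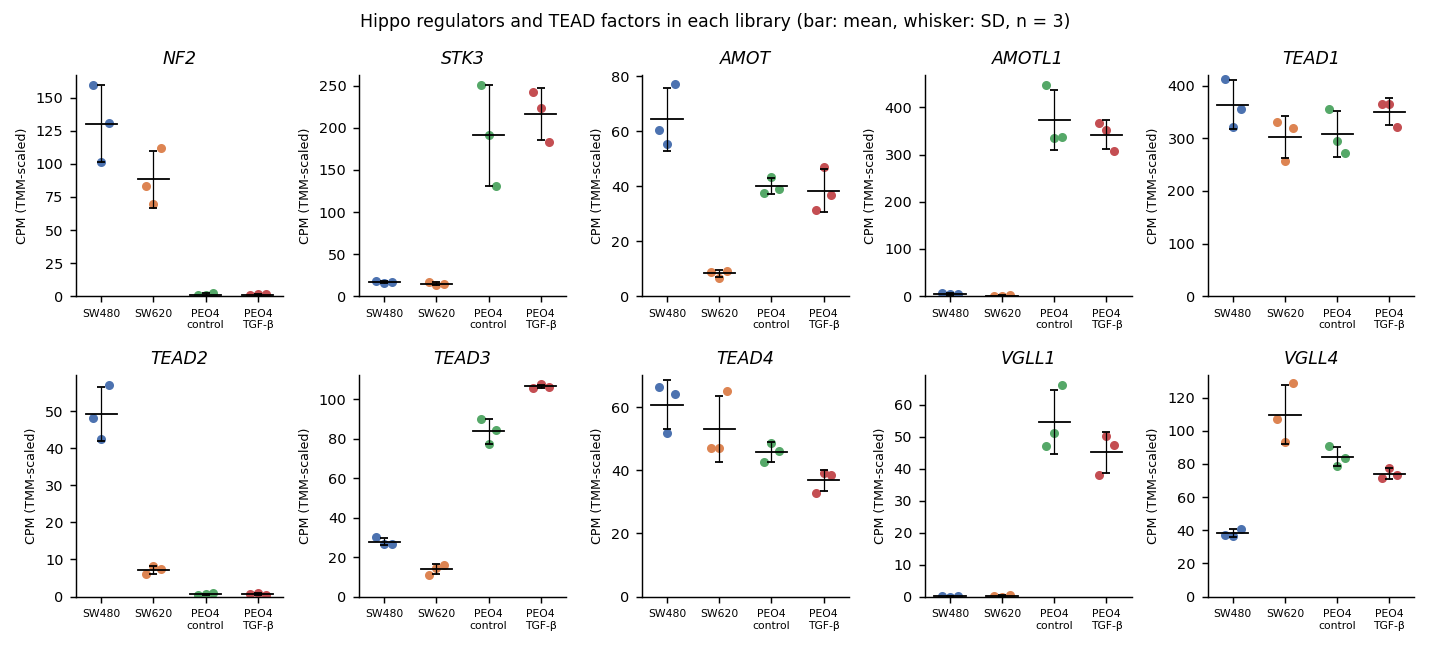
Level of 10 Hippo regulators, TEAD factors and VGLL cofactors in CPM (linear axes starting at 0) in every library, with the mean as a bar and the SD as a whisker (n = 3). NF2 is near 0 in PEO4, STK3, AMOTL1 and VGLL1 are low in both SW lines, and TEAD1 is similar in all groups.

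With TGF-β, 1 of 27 Hippo genes tested in PEO4 passed the threshold (3.70%, near the 2.26% of all genes). It was MAP4K4, a kinase that acts beside MST1 and MST2, which rose from 117 to 188 CPM (log2 fold change 0.66 ± 0.14, adjusted p = 0.0472 in edgeR). It lost the call under 6 of the 12 alternatives, the 5 that left out a library other than control replicate 1 among them, with log2 fold changes of 0.56 to 0.71. FRMD6 had 0.99 ± 0.21 and an adjusted p of 0.0507 in edgeR. The core genes had 0.15 ± 0.20 for STK3, 0.18 ± 0.09 for STK4, -0.01 ± 0.16 for SAV1, -0.12 ± 0.07 for LATS1, -0.01 ± 0.08 for MOB1A, -0.01 ± 0.09 for MOB1B and -0.11 ± 0.51 for NF2 (SE). None of the 10 genes of the TEAD complex list passed in edgeR. By an unadjusted p under 0.05 in edgeR it was 4 of the 10, beside 3175 of all 19064 genes. DESeq2 called 2 of the 10, beside 922 of all genes. TEAD3 had 0.32 ± 0.07, from 83.8 to 107 CPM, and passed by DESeq2, TEAD4 had -0.35 ± 0.11, TEAD1 0.16 ± 0.10 and TEAD2 0.19 ± 0.45.

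Of a published list of 22 YAP and TAZ target genes, which holds 7 of the 10 genes and was itself first applied to these data after single-gene results were seen, 21 were tested between the SW lines and 15 passed, 14 of them lower in SW620. Without those 7, 8 of 14 passed (57.1%, beside 30.5% of all genes), 7 lower and 1 higher, with a median log2 fold change of -0.57. TGFB2, a TGF-β ligand that shares 26.6% of its exon bases with TGFB2-OT1 on the same strand and so has uncertain counts, fell from 13.3 to 0.398 CPM (-5.02 ± 0.31) and IGFBP3, a secreted binder of insulin-like growth factors, from 91.5 to 2.84 CPM (-4.98 ± 0.26, adjusted p = 4.06e-06 in edgeR). AXL, a receptor tyrosine kinase, fell from 244 to 35.7 CPM (-2.75 ± 0.23). Of 10 further genes often cited as targets 6 passed, all lower (60%, beside 30.5% of all genes, 17.0% being called lower). The list's median was -0.74. Without SW480 replicate 1, 3 of them passed. Among them were DLC1 (-4.11 ± 0.25), CCND1, cyclin D1, from 3299 to 388 CPM (-3.07 ± 0.31), INHBA, a subunit of activins, with 0 to 5 counts in SW620 (-3.27 ± 0.77), ARHGAP29 (-0.82 ± 0.20) and THBS1 (-0.66 ± 0.18). ARHGAP29 and THBS1 lost the call without SW480 replicate 1, at -0.65 and -0.49. Both also lost it without SW620 replicate 1, at -0.66 and -0.59, and THBS1 without SW480 replicate 3, at -0.64. With all 12 libraries in 1 model, INHBA at -3.29 and THBS1 at -0.68 were not called.

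In PEO4, 1 gene of each of these target lists passed, both higher with TGF-β (4.76% of 21 and 10% of 10 tested, beside 2.26% of all genes). By an unadjusted p under 0.05 in edgeR it was 9 of 21 and 3 of 10, beside 3175 of all 19064 genes, and 9 of 21 and 3 of 10 had groups that did not overlap, beside 20.0% of all genes. THBS1, thrombospondin, rose from 126 ± 55.6 to 687 ± 157 CPM (log2 fold change 2.43 ± 0.30, adjusted p = 0.00586 in edgeR), and TGFB2 from 0.276 ± 0.0907 to 1.76 ± 0.301 CPM (2.61 ± 0.40, adjusted p = 0.0146 in edgeR). THBS1 lost the call without control replicate 2, at 2.45, and TGFB2 without control replicate 2, TGF-β replicate 1 or TGF-β replicate 3, at 2.40, 2.59 and 2.49. The list medians were 0.12 for the 22 genes, of which 21 were tested, and -0.0037 for the 10 further targets. TGFB2 and THBS1 were both lower in SW620 than in SW480, and THBS1 is a known TGF-β target as well.

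**Figure D5:**
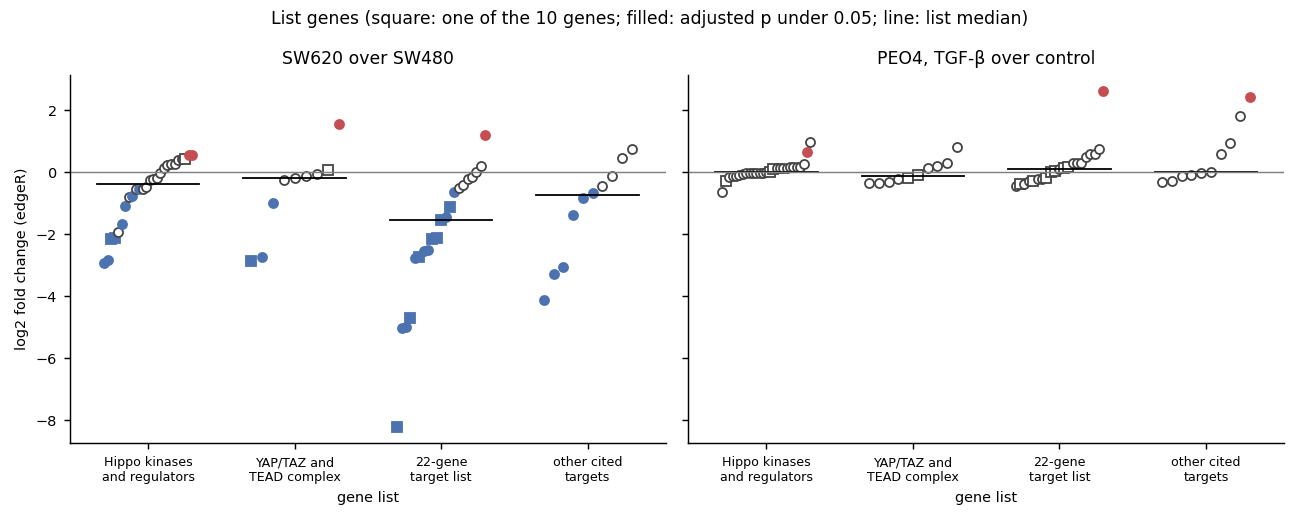
Log2 fold change from edgeR of every tested gene of 4 lists, in order of size, with SW620 over SW480 on the left and PEO4 with TGF-β over control on the right. Squares are the 10 genes above, filled symbols passed an adjusted p of 0.05 and lines are list medians, which reach -1.54 for the 22-gene list between the SW lines and stay between -0.12 and 0.12 in PEO4.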

How the data were processed

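Total RNA of 12 libraries was treated with DNase, depleted of rRNA and sequenced, as the labels' protocols state. The submitters' processing notes name GRCh38, Trimmomatic 0.36, STAR 2.5.2b, featureCounts, Subread 1.5.2 and DESeq2, with no order or settings. The authors deposited whole-number counts for 57500 Ensembl gene IDs (485 without a symbol), which all tests here use. Their deposited tables of log2 fold changes and adjusted p-values served only for the count of calls, and their per-library columns were not used here.

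edgeR 4.0.16 (R 4.3.3) was run on the 6 libraries of a comparison at a time (filterByExpr, TMM, glmQLFit and glmQLFTest, two-sided, Benjamini-Hochberg over all genes, threshold 0.05), and checked on simulated data. Samples carry the labels' groups. Carried reads were estimated from genes with at least 10 CPM in every donor library and at most 0.2 CPM in all but 1 of the other receiving libraries. Levels per kilobase use merged exons of GENCODE 29, and the counting may have used another annotation.

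The members and lists were chosen with earlier results of these data known. Named are all 10 genes, the TEAD factors, the core kinases and NF2, up to 6 called genes per list and comparison (1 of them is not reported here), and 3 genes most like each reporter (at least 10 CPM in the highest group); AMOTL1, VGLL1 and the levels of EPAS1 and KCNJ5 were picked after their values were seen. Alternatives were RLE and total-count scaling, DESeq2 1.42.0, no filter, all 12 libraries in 1 model, a replicate block, and leaving out each library.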

Additional observations from a re-analysis of the deposited data

How the results depend on the processing

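None of the called fold changes of the 10 genes changed sign under the alternatives run. With each library left out in turn, 7 to 9 of the 10 were called between the SW lines and 0 in PEO4. Over all genes, the same settings called 4253 to 7419 between the SW lines and 72 to 1080 in PEO4. Nothing is read from the counts of the 10, since they were chosen with both contrasts known. Deviations from the group means were correlated between same-numbered libraries. The values in replicates 1 to 3 were r = 0.0163, 0.671 and 0.568 in the SW lines and 0.288, -0.145 and 0.480 in PEO4. Not every library correlated best with its own number. As not every pair passed 0.1, the numbers were not taken to pair the libraries, and whether they mark a shared culture or day is not stated in the labels. The replicate block called 10667 genes between the SW lines (5111 higher and 5556 lower, 6385 without it) and 2102 in PEO4 (1210 higher and 892 lower, 431 without it). It called 18 Hippo genes between the SW lines, and in PEO4 4 Hippo, 4 TEAD complex, 13 of the 22-gene list and 5 further targets. In PEO4 it also called CTGF at -0.41 and AMOTL2 at -0.27, and between the SW lines AJUBA at 0.43.

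Other settings moved counts in PEO4. DESeq2 called 922 genes there, with 2 Hippo, 2 TEAD complex, 3 of the 22-gene list and 3 further targets. Without a filter on low counts 1457 genes were called, with 2, 2, 6 and 4 in the same order of lists, and total-count scaling called 2 Hippo genes and 2 further targets. All 12 libraries in 1 model called 165 genes. With 1 library left out, 72 (without control replicate 2) to 1080 (without control replicate 1) genes were called in PEO4, with 0 to 2 Hippo, 0 to 2 TEAD complex, 0 to 6 of the 22-gene list and 0 to 4 further targets. Between the SW lines this gave 4253 (without SW480 replicate 1) to 7419 (without SW620 replicate 3) genes, 6 to 12 Hippo genes and 3 to 6 further targets. Without SW620 replicate 3 the median log2 fold change of the 22-gene list was -1.90. The cause of these moves was not tested. Counts were lowest in SW620 for ANKRD1, with 20, 18 and 5, and NT5E, with 20, 17 and 38, which limits the precision of both folds.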
